A study of Homo sapiens with 6 samples.

Results

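Interferon-stimulated genes are genes whose transcription rises when a cell is exposed to interferon. A list of 45 such genes outside the OAS and IFIT families was taken by name, with earlier results of these data known. The members' counts and medians set beside all probe sets below carry that limit. A probe set carrying the symbol was found for 41, with 1 probe set per gene, out of 16965 probe sets on the array. STAT2, TRIM25, EPSTI1 and CXCL10 were not analysed here. All cells were MDA-MB-231, an established human breast cancer line of triple-negative type, grown with 10% serum and 2.5 µg/ml puromycin. They carried a lentiviral short hairpin RNA, which was either a control hairpin (shNCT) or one of a pair of hairpins against the S100A10 transcript (shS100A10_1 and shS100A10_5). Each of the 3 groups had 2 arrays. S100A10 encodes p11, a partner of annexin A2 at the cell surface. All 3 groups share the lentiviral vector and the puromycin. Nothing in the labels says whether a group's 2 arrays are separate cultures. The p-values below therefore set each difference between groups only against the spread between such arrays, shared in part over probe sets. That spread may be technical. The number of arrays limits the precision of every value.

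Type I interferons signal through the receptor subunits IFNAR1 and IFNAR2 and the kinases JAK1 and TYK2. The signal reaches the nucleus through a complex that holds IRF9 and binds the interferon-stimulated response element in target promoters. Interferon gamma acts through another promoter sequence, the gamma-activated site. Many of the same targets can also be switched on by interferon regulatory factors once RNA or DNA is sensed in the cytosol.

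The targeted gene was lower on every array with a hairpin against it. S100A10 intensity, on the linear scale of the deposited table, was 88860 and 92938 with shNCT, 1969 and 1545 with shS100A10_1, and 13565 and 9460 with shS100A10_5. The line markers VIM, CD44, EGFR, CAV1 and AXL had intensities between 2129 and 92902 with shNCT, and CDH1 had 11.4 and 16.5. KRT8 and EPCAM, listed as low in this line, were at 44887 and 40892 and at 937 and 935 with shNCT. EPCAM was at 1508 and 1387 with shS100A10_1 and 1366 and 1730 with shS100A10_5, above the controls on all 4 arrays (changes 0.63 and 0.72; limma adjusted p = 0.326 and 0.0624). Of the 7 markers listed as low 5 had a probe set and 0 passed (1, EPCAM, was higher at an unadjusted p under 0.05 by limma with each hairpin); its part in the results below was not tested. Of 10 leukocyte markers 7 had a probe set; their intensities on the 6 arrays lay between 10.5 and 92.4, and 0 of 7 passed the limma test in any comparison (at an unadjusted p under 0.05, 1 was higher with shS100A10_5 than with shS100A10_1). On the first principal component of all probe sets (45.2% of the variance) shS100A10_5 replicate 2 lay farthest out, at 41.1, against 18.7 for replicate 1 and -18.2 to -10.03 for the other 4 arrays. The members' calls are given without this array as well. In whole cultures, fewer cells expressing a gene and less RNA per cell cannot be told apart.

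With the control hairpin the members covered a wide range of signal. Intensities ran from 18.5 for MX2, a dynamin-like GTPase, to 67073 for IFITM3, a membrane protein that blocks virus entry. Of the 41 members, 12 lay above the upper quartile of all probe sets on the control arrays, 25 lay between the quartiles, and 4 (MX2, IRF7, CMPK2 and IFI44L) lay below the lower quartile. Brightness depends on the probes, so these positions do not rank the genes by transcript number.

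Promoter windows of 300 bases from RefSeq (GRCh38.p14), with 250 bases before the transcription start and 50 from it, were matched by symbol for 33 of the 41 members, 46 windows in all. MX2, IFITM2, IRF2, IRF7, USP18, TRIM22, PML and GBP2 had no match. The core of the response element was searched as GAAANNGAAA on both strands, with overlapping matches counted separately. It was found for 22 of the 33 members (66.7%), against 4.38% of 27305 genes in the table and 3.57% of its 35116 windows. The gamma-activated site, searched as TTCNNNGAA, which reads the same on both strands, was found for 11 of 33 (33.3%), against 9.38% of genes and 7.66% of windows. Matches of the 2 motifs overlap in windows of MX1, IFITM1, BST2 and IFI27. Of the 6 members that passed the test in any comparison below, GBP1, SAMD9 and DTX3L hold the response element core. Their windows are shown for that reason, 5′ to 3′ along the gene, with the core in capitals. They lie at chr1:89065159-89065458 (GBP1, minus strand), chr7:93117930-93118229 (SAMD9, minus strand) and chr3:122564088-122564387 (DTX3L, plus strand).
GBP1: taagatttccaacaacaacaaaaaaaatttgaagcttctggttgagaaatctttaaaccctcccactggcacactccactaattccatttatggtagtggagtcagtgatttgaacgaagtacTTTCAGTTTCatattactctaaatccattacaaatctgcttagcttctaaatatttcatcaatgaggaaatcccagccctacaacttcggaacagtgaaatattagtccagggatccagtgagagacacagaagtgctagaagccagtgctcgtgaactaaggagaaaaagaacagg
SAMD9: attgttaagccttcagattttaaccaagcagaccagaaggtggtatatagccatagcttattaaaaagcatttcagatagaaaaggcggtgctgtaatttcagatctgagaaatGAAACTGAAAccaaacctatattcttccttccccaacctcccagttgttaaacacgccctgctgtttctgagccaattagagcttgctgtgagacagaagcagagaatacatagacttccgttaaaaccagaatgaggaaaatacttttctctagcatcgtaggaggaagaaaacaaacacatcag
DTX3L: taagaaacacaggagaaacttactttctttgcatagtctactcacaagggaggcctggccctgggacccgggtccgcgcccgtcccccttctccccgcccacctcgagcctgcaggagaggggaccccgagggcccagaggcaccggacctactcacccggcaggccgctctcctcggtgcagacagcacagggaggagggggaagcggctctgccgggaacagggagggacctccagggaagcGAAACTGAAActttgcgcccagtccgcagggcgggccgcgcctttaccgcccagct

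The core begins 127 bases before the start of GBP1 and 136 before that of SAMD9. In DTX3L it begins 6 bases before the start and runs across it. The DTX3L match, at chr3:122564332-122564341, is the same stretch of genome as the match that begins 41 bases before a start of PARP9, its neighbour. Neither the 2 windows of SP110 nor the 2 of XAF1 hold these letters. The search allowed no mismatch, so this says nothing of sites spelled otherwise within the windows, or of sites outside them. The 22 members with the core had a median log2 change of 0.25 with shS100A10_1 and 0.37 with shS100A10_5, and the 11 without it 0.12 and 0.38. For the gamma-activated site these medians were 0.05 and 0.40 for the 11 members with a match, and 0.17 and 0.35 for the 22 without.

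**Figure D1:**
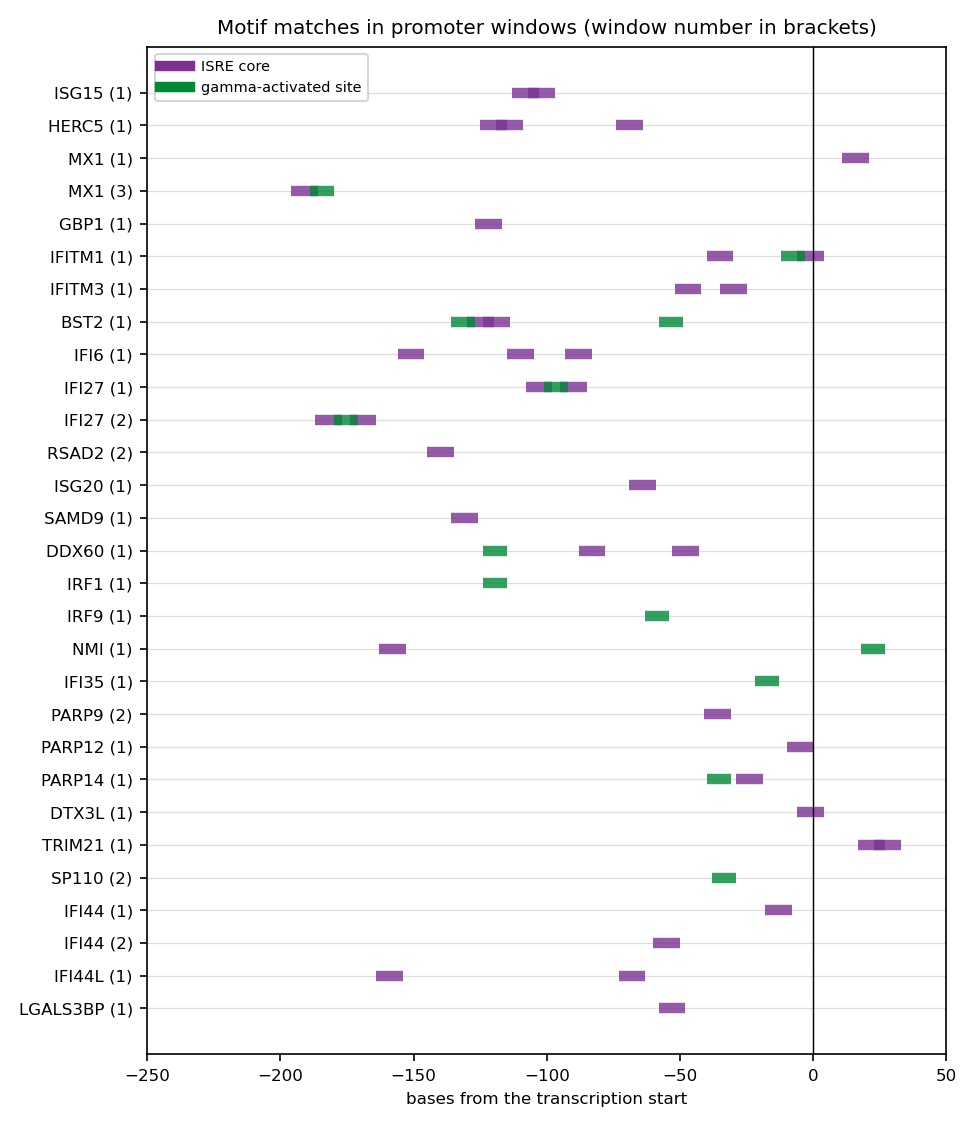
Positions of the response element core (purple, ISRE core) and the gamma-activated site (green) in the promoter windows of members that hold either, in bases from the transcription start, with the window number in brackets. Most cores lie before the start, whereas those of TRIM21 and of MX1 window 1 lie after it.

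Changes are log2 ratios of group means from a linear model over all 6 arrays (limma), with Benjamini-Hochberg adjusted p-values over the whole table of 16965 probe sets and a threshold of 0.05. With shS100A10_1, 0 of 41 members passed in either direction, where 0.1% of all probe sets passed as higher and 0.0884% as lower. At an unadjusted p under 0.05 by limma, 10 members were higher (background 4.28%) and 0 lower (background 4.16%). The 10 were IFI44, GBP2, IFITM1, DDX60, RSAD2, SAMD9, HERC5, PML, IFITM2 and IFITM3. The members' median change was 0.20, against 0.01 over all probe sets. Of the 41 changes 30 were positive, as were 8647 over all 16965 probe sets. Both shS100A10_1 arrays lay above both control arrays for 21 members and below them for 6. Over all 16965 probe sets this held for 3707 and 3484. The 95% interval lay within 2-fold in both directions for 35 of the 41, against 15990 of all probe sets.

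With shS100A10_5, 4 members rose (GBP2, XAF1, SAMD9 and SP110; background 1.43%) and 0 fell (background 1.75%). At an unadjusted p under 0.05 by limma, 18 were higher (background 10.7%) and 1, PARP12, was lower (background 10.3%). The median change was 0.36, against 0.02 over all probe sets. Of the 41 changes 34 were positive, as were 9036 over all 16965 probe sets. Both shS100A10_5 arrays lay above both control arrays for 26 members and below them for 5. Over all probe sets this held for 4537 and 4038. Both comparisons use the same 2 control arrays. The count of 4 was 0 without shS100A10_5 replicate 2, 0 without shNCT replicate 1 and 1 (GBP2) without shNCT replicate 2, whereas it was 10 without shS100A10_5 replicate 1. Leaving out shS100A10_5 replicate 2 moved the change with this hairpin by over 1.5 times, or turned its sign, for 14 members, none of them among the 4. PARP9, TRIM22, MX1, IRF2, USP18 and ISG20 came closer to 0, at 0.40, 0.41, 0.28, 0.08, 0.12 and 0.17. DDX60 and IFI35 turned from 0.25 and 0.04 to -0.04 and -0.06. IRF9, CMPK2, IFI6, HERC5, RSAD2 and ISG15 moved away from 0, to 0.57, 0.47, 0.30, -0.30, -0.29 and -0.04.

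**Figure D2:**
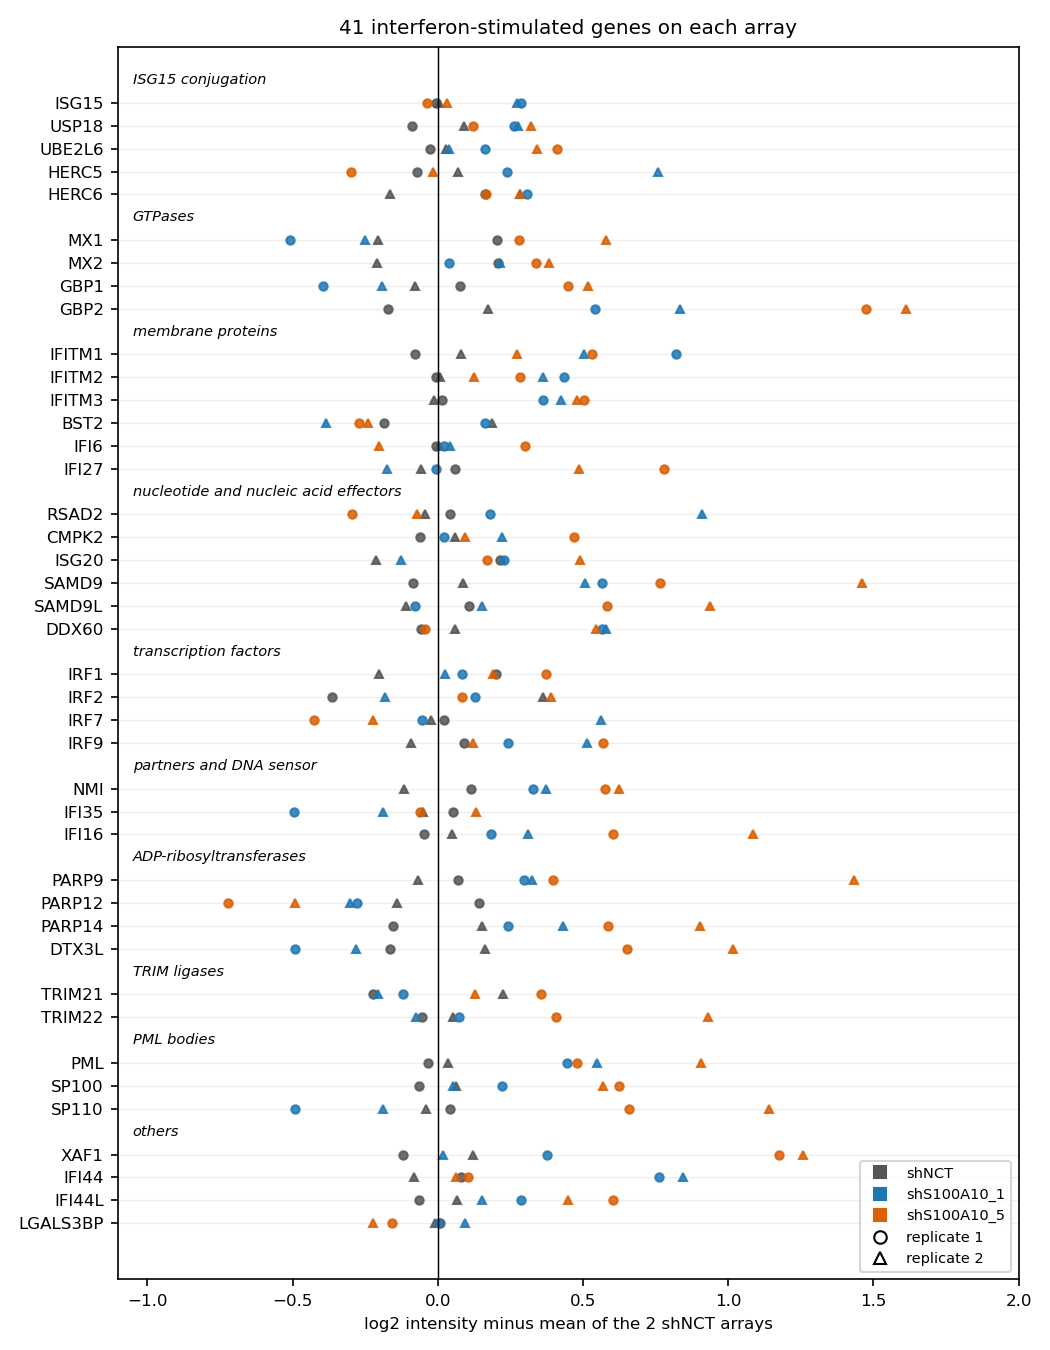
Log2 intensity of the 41 members on each of the 6 arrays, minus the mean of the 2 shNCT arrays, by role (colour, group; circle, replicate 1; triangle, replicate 2). Both shS100A10_5 arrays lie above 1 for GBP2 and XAF1, and both shS100A10_1 arrays of IFI44 lie to the right of its other 4.

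The hairpins were also compared with each other. With shS100A10_5, 5 members were higher than with shS100A10_1 (SP110, DTX3L, XAF1, GBP2 and GBP1; background 1.43%) and 0 lower (background 1.48%). At an unadjusted p under 0.05 by limma, 12 were higher (background 10.1%) and 4 lower (background 9.8%), the latter being RSAD2, IFI44, HERC5 and IRF7. The median difference was 0.25, against 0.02 over all probe sets. The count of 5 was 0 without shS100A10_5 replicate 2, 0 without shS100A10_1 replicate 1, 2 (DTX3L and SP110) without shS100A10_1 replicate 2 and 3 (DTX3L, SP110 and XAF1) without either shNCT array. Without shS100A10_5 replicate 1 it was 5, made up of DTX3L, SP110, PARP9, SAMD9 and TRIM22.

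**Figure D3:**
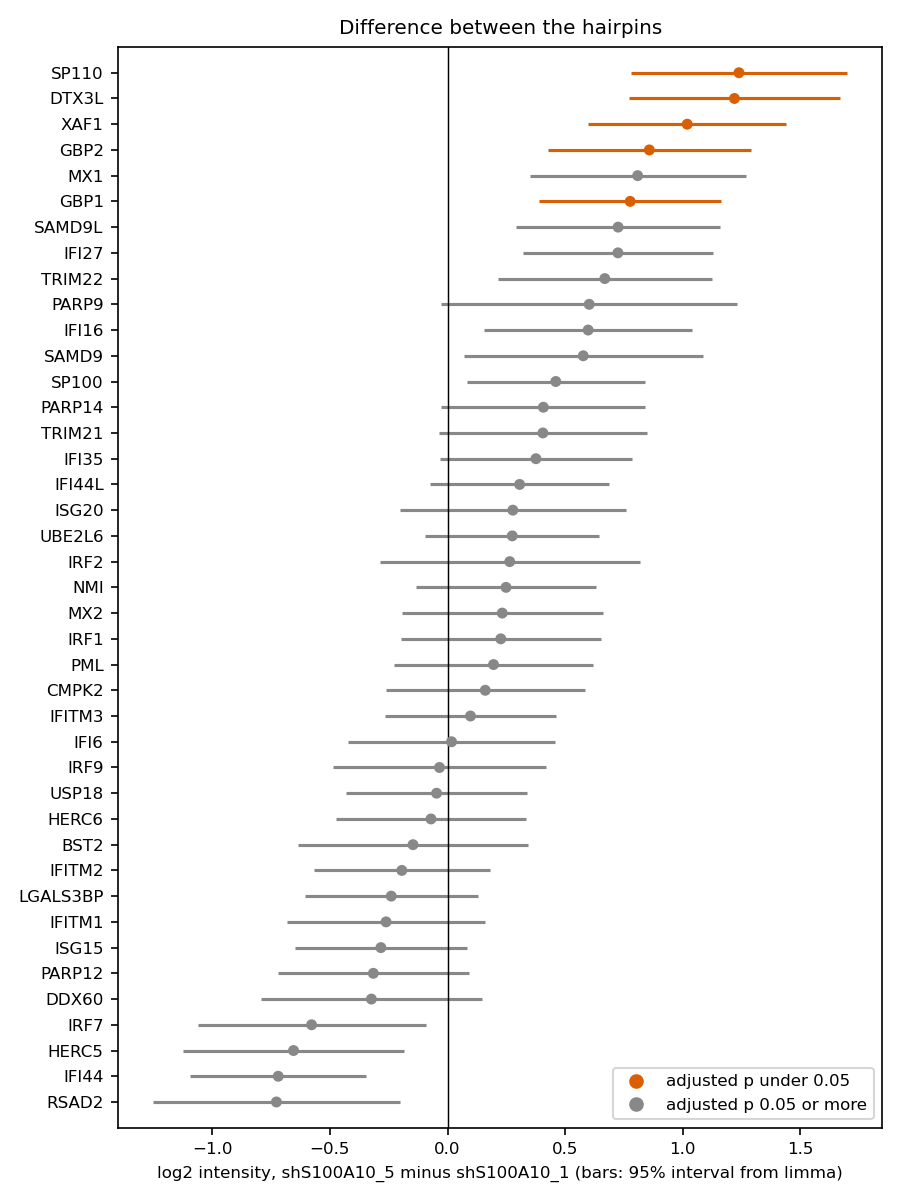
Difference in log2 intensity, shS100A10_5 minus shS100A10_1, for the 41 members in order of size, with 95% intervals from limma over all 6 arrays. The 5 members past the threshold (orange) run from 0.78 for GBP1 to 1.24 for SP110, and RSAD2 is lowest at -0.73.

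Among the interferon-induced GTPases, GBP2 had the largest change of the 41 members. Guanylate-binding proteins act on the membranes of intracellular pathogens. GBP2 intensity was 268 and 340 with shNCT, 438 and 537 with shS100A10_1, and 838 and 922 with shS100A10_5. The 3 groups did not overlap, and shS100A10_5 was the highest. From a control level of 8.24 ± 0.24 (log2, SD, n = 2), GBP2 rose by 1.54 with shS100A10_5 (SE 0.19, 2.92-fold; limma adjusted p = 0.00863) and had a change of 0.69 with shS100A10_1 (adjusted p = 0.318). The hairpins differed by 0.86 (95% interval 0.43 to 1.29; limma adjusted p = 0.0466). Without shS100A10_5 replicate 2 the change against control was 1.47 and the difference 0.79 (limma adjusted p = 0.0993 and 0.197).

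GBP1, the neighbour of GBP2 on chromosome 1, was on opposite sides of the control with the 2 hairpins. Its intensity was 2076 and 1863 with shNCT, 1494 and 1722 with shS100A10_1, and 2684 and 2812 with shS100A10_5. Both shS100A10_1 arrays were below the controls and both shS100A10_5 arrays above them. Neither change against control passed (-0.29 and 0.48, SE 0.17; limma adjusted p = 0.718 and 0.146), but the hairpins differed by 0.78 (95% interval 0.39 to 1.16; adjusted p = 0.0453). This difference was 0.74 without shS100A10_5 replicate 2 (limma adjusted p = 0.167). MX1, which traps viral nucleocapsids, was at 491 and 369 with shNCT, 299 and 358 with shS100A10_1, and 516 and 636 with shS100A10_5, the same order of groups without overlap. Its difference between hairpins of 0.81 did not pass (limma adjusted p = 0.0664). MX2 had changes of 0.13 and 0.36 with shS100A10_1 and shS100A10_5, the order in which pairs of changes are given from here on.

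PML organizes nuclear bodies that also hold SP100 and SP110. SP110 intensity was 1842 and 1738 with shNCT, 1273 and 1571 with shS100A10_1, and 2824 and 3944 with shS100A10_5. The groups did not overlap, and shS100A10_1 was the lowest. SP110 rose by 0.90 with shS100A10_5 (SE 0.21, 1.86-fold; limma adjusted p = 0.048) and had a change of -0.34 with shS100A10_1 (adjusted p = 0.727). Its difference between hairpins was 1.24 (95% interval 0.78 to 1.70; limma adjusted p = 0.0169). Without shS100A10_5 replicate 2 the change against control was 0.66 and the difference 1.00 (limma adjusted p = 0.211 and 0.118). PML was at 2003 and 2102 with shNCT, 2795 and 2999.7 with shS100A10_1, and 2862 and 3841 with shS100A10_5, so that all 4 arrays with an S100A10 hairpin were above the controls. Its changes were 0.50 and 0.69 (limma adjusted p = 0.494 and 0.0762). SP100 had changes of 0.14 and 0.60.

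XAF1, which antagonizes the apoptosis inhibitor XIAP, rose with shS100A10_5. Its intensity was 140 and 166 with shNCT, 198 and 154 with shS100A10_1, and 344 and 364 with shS100A10_5. The shNCT and shS100A10_1 arrays overlapped, and the shS100A10_5 arrays stood above both. XAF1 rose by 1.22 (SE 0.19, 2.32-fold; limma adjusted p = 0.0134), against a change of 0.20 with shS100A10_1 (adjusted p = 0.858). The hairpins differed by 1.02 (95% interval 0.60 to 1.44; limma adjusted p = 0.0236). Without shS100A10_5 replicate 2 the change against control was 1.17 and the difference 0.98 (limma adjusted p = 0.13 and 0.136).

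IFI44, an interferon-induced cytoplasmic protein, had the largest change of the members with shS100A10_1. Its intensity was 171 and 153 with shNCT, 275 and 291 with shS100A10_1, and 174 and 169 with shS100A10_5. The shS100A10_1 arrays stood above the other 4, among which the groups overlapped. The change of 0.80 (SE 0.17, 1.74-fold) did not pass (limma adjusted p = 0.128), nor did that of 0.08 with shS100A10_5 (adjusted p = 0.823) or the difference between hairpins of -0.72 (95% interval -1.09 to -0.35; adjusted p = 0.0518). Its neighbour IFI44L had changes of 0.22 and 0.53. LGALS3BP, a secreted glycoprotein, had changes of 0.05 and -0.19.

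**Figure D4:**
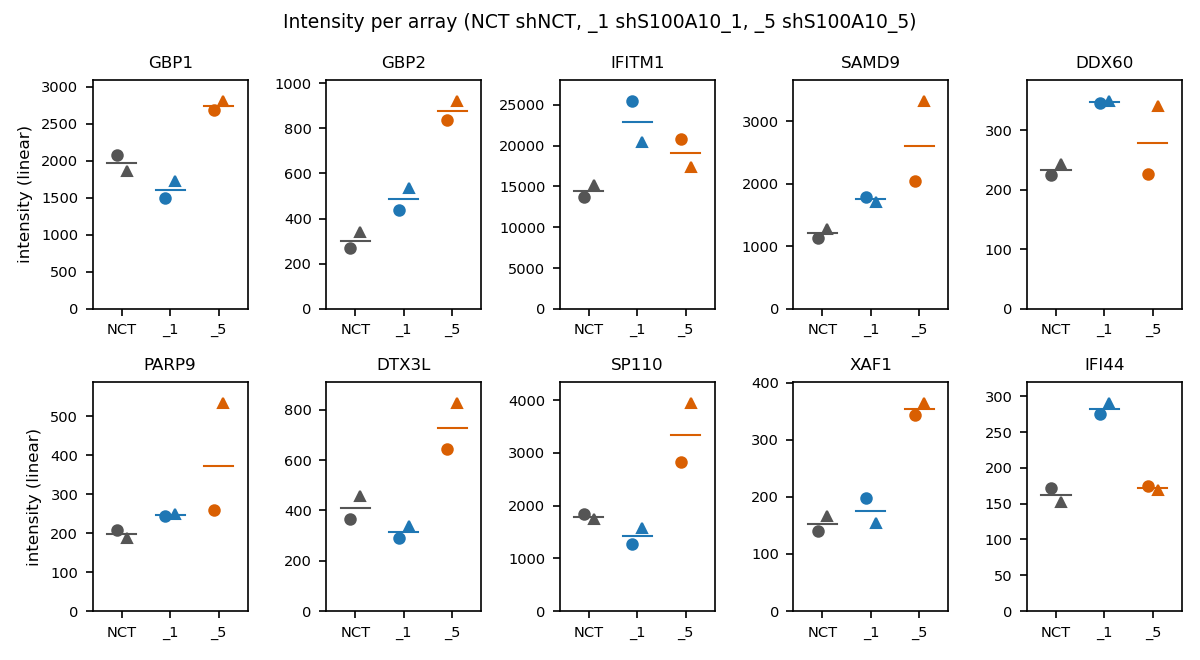
Linear intensity on each of the 6 arrays for the 10 members that passed in any comparison or had 1 of the 4 largest changes in one; circles and triangles are replicates 1 and 2, and lines are group means of the log2 values turned back to the linear scale. The shS100A10_5 replicates of GBP2 and XAF1 lie close together, whereas those of SAMD9 and PARP9 lie far apart.

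Of the effectors that act on nucleotides or nucleic acids, SAMD9 rose. SAMD9 restricts poxviruses and lies beside its paralog SAMD9L on chromosome 7. SAMD9 intensity was 1138 and 1283 with shNCT, 1790 and 1716 with shS100A10_1, and 2052 and 3330 with shS100A10_5. No groups overlapped, but the shS100A10_5 replicates lay far apart. SAMD9 rose by 1.11 with shS100A10_5 (SE 0.23, 2.16-fold; limma adjusted p = 0.0348); without its replicate 2 the change was 0.76 (adjusted p = 0.17). With shS100A10_1 the change was 0.54 (limma adjusted p = 0.556), and the difference of 0.58 between hairpins did not pass (95% interval 0.07 to 1.08; adjusted p = 0.198; 0.23 without shS100A10_5 replicate 2). SAMD9L was at 1130 and 973 with shNCT, 992 and 1165 with shS100A10_1, and 1570 and 2010 with shS100A10_5, with the shS100A10_5 arrays above the rest (change 0.76; limma adjusted p = 0.0634).

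DDX60, a helicase tied to RIG-I signalling, was at 225 and 244 with shNCT, 347 and 350 with shS100A10_1, and 227 and 341 with shS100A10_5. Both shS100A10_1 arrays were above the controls, while shS100A10_5 replicate 1 lay among them. Its changes were 0.57 and 0.25 (SE 0.21; limma adjusted p = 0.46 and 0.546), and the difference between hairpins was -0.32 (95% interval -0.79 to 0.14; adjusted p = 0.433). RSAD2, or viperin, which makes a chain-terminating nucleotide, was at 51.8 and 48.8 with shNCT, 56.9 and 94.4 with shS100A10_1, and 41 and 47.9 with shS100A10_5. Its change with shS100A10_1, 0.54, came mostly from replicate 2. CMPK2, the nucleotide kinase encoded next to it, had changes of 0.12 and 0.28, and the exonuclease ISG20 had 0.05 and 0.33.

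PARP9, DTX3L and PARP14 lie close together on chromosome 3, and PARP9 forms a complex with the ubiquitin ligase DTX3L. DTX3L intensity was 365 and 458 with shNCT, 291 and 337 with shS100A10_1, and 643 and 826 with shS100A10_5. It was below the controls with shS100A10_1 and above them with shS100A10_5, with no overlap. Its changes were -0.39 and 0.83 (SE 0.20; limma adjusted p = 0.66 and 0.0537), and the hairpins differed by 1.22, or 2.33-fold (95% interval 0.77 to 1.67; adjusted p = 0.0165). Without shS100A10_5 replicate 2 this difference was 1.04 (limma adjusted p = 0.12).

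PARP9, with the shared stretch of promoter described above, was at 207 and 189 with shNCT, 243 and 248 with shS100A10_1, and 260 and 533 with shS100A10_5. Both hairpins lay above the controls, shS100A10_5 mainly through replicate 2. The change of 0.91 with shS100A10_5 (SE 0.28; limma adjusted p = 0.104) was 0.40 without that replicate. With shS100A10_1 its change was 0.31 (limma adjusted p = 0.844), and the hairpins differed by 0.60 (95% interval -0.03 to 1.23; adjusted p = 0.272), or by 0.08 without that replicate. PARP14 had changes of 0.34 and 0.74 (limma adjusted p = 0.708 and 0.068). PARP12, an ADP-ribosyltransferase encoded elsewhere, was at 2631 and 2164 with shNCT, 1967 and 1935 with shS100A10_1, and 1447 and 1698 with shS100A10_5. It went down in that order of groups without overlap, with changes of -0.29 and -0.61 (limma adjusted p = 0.738 and 0.0971).

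The 3 IFITM genes, neighbours on chromosome 11, were above the controls on all 4 arrays with an S100A10 hairpin, and 0 of 3 passed. Of all 16965 probe sets, 3707 lay above both controls with shS100A10_1 and 4537 with shS100A10_5. The share above them with both hairpins was not counted. IFITM1 was at 13662 and 15234 with shNCT, 25494 and 20464 with shS100A10_1, and 20828 and 17438 with shS100A10_5, with changes of 0.66 and 0.40 (SE 0.19; limma adjusted p = 0.319 and 0.261). IFITM3 was at 67073 and 65767 with shNCT, 85480 and 89028 with shS100A10_1, and 94111 and 92578 with shS100A10_5, with changes of 0.39 and 0.49 (limma adjusted p = 0.544 and 0.123). IFITM2 had changes of 0.40 and 0.20. Their transcripts are similar in sequence, and probe signal common to several of them was not separated. For IFITM1 the difference between hairpins was -0.26 (95% interval -0.68 to 0.16; limma adjusted p = 0.488), and -0.13 without shS100A10_5 replicate 2.

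The other membrane proteins had changes in both directions. IFI27, a small mitochondrial protein, was at 144 and 133 with shNCT, 138 and 122 with shS100A10_1, and 237 and 194 with shS100A10_5, so that the shS100A10_5 arrays stood above the rest (change 0.63; limma adjusted p = 0.0854). IFI6 had changes of 0.03 and 0.05. BST2, or tetherin, which holds budding virions at the cell surface, had -0.11 and -0.26.

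ISG15 is a ubiquitin-like protein. UBE2L6 is its conjugating enzyme, HERC5 its ligase, and USP18 removes it. ISG15 was at 177 and 179 with shNCT, 217 and 215 with shS100A10_1, and 173 and 182 with shS100A10_5, with the shS100A10_1 arrays slightly above the other 4 (changes 0.28 and -0.003, SE 0.16; limma adjusted p = 0.713 and 0.994). HERC5 was at 693 and 764 with shNCT, 858 and 1229 with shS100A10_1, and 592 and 719 with shS100A10_5, again highest with shS100A10_1 (changes 0.50 and -0.16; limma adjusted p = 0.555 and 0.72). UBE2L6 had changes of 0.10 and 0.38, USP18 of 0.27 and 0.22, and HERC6, a relative of HERC5, of 0.30 and 0.22. Of these 5 genes 0 passed in any comparison by limma. At an unadjusted p under 0.05, 1 was higher against control with shS100A10_1 (HERC5; background 4.28%) and 1 with shS100A10_5 (UBE2L6; background 10.7%). Between the hairpins 4 of the 5 were lower with shS100A10_5, as were 8136 of all 16965 probe sets. Of the 4, 1 was lower at an unadjusted p under 0.05 by limma (HERC5, -0.65; background 9.8%). USP18 and HERC6 were at -0.05 and -0.07, with overlapping arrays.

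No transcription factor among the members passed, and 0 of 4 reached an unadjusted p under 0.05 by limma against control with either hairpin. The backgrounds were 4.28% higher and 4.16% lower with shS100A10_1, and 10.7% and 10.3% with shS100A10_5. With these shares, 4 genes are too few for a count of 0 to set them apart. IRF9, the DNA-binding part of the complex on the response element, was at 681 and 599.7 with shNCT, 756 and 913 with shS100A10_1, and 947 and 695 with shS100A10_5. All 4 arrays with an S100A10 hairpin were above the controls (changes 0.38 and 0.34; limma adjusted p = 0.678 and 0.372; 95% interval -0.08 to 0.83 with shS100A10_1). IRF1 had changes of 0.05 and 0.28 and its antagonist IRF2 of -0.03 and 0.24. IRF7, the amplifier of type I interferon transcription, was dim, at 18.3 to 36.3 over the 6 arrays, with changes of 0.25 and -0.32. Between the hairpins IRF7 was lower with shS100A10_5 at an unadjusted p under 0.05 by limma (-0.58; background 9.8%).

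IFI16, a sensor of DNA, was at 7106 and 7604 with shNCT, 8352 and 9112 with shS100A10_1, and 11162 and 15613 with shS100A10_5. The groups did not overlap, and the change of 0.84 with shS100A10_5 missed the threshold (SE 0.20; limma adjusted p = 0.0504). Without replicate 2 that change was 0.60. NMI was at 759 and 647 with shNCT, 880 and 908 with shS100A10_1, and 1045 and 1079 with shS100A10_5, in the same order (change 0.60 with shS100A10_5; limma adjusted p = 0.085), while IFI35, with which it forms a dimer, had changes of -0.34 and 0.04. The ubiquitin ligase TRIM21, a cytosolic antibody receptor, had changes of -0.16 and 0.24. TRIM22 was at 77.2 and 83 with shNCT, 84.2 and 75.9 with shS100A10_1, and 106 and 152 with shS100A10_5, with the shS100A10_5 arrays above the rest (changes -0.001 and 0.67; limma adjusted p = 0.102 for the latter).

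In the RefSeq order of protein-coding genes, 11 pairs of members had at most 2 other genes between them. The difference between hairpins had the same sign in both genes for 8 of the 11. Over all 41 members 27 differences were positive and 14 negative, so pairs taken without regard to position would also often share a sign. The signs were opposite for IFI44L and IFI44 (0.31 and -0.72), for CMPK2 and RSAD2 (0.16 and -0.73), and for IFITM1 and IFITM3 (-0.26 and 0.10). Several pairs share a gene, so they are not independent.

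The rest of the pathway was read from lists. Of 21 interferon ligands 14 had a probe set, and 0 passed in any comparison by limma (at an unadjusted p under 0.05 against control, 0 were higher with shS100A10_1 and 2 with shS100A10_5, where 10.7% of all probe sets were). IFNB1 was dim, at 14.3 to 20.7. IFNAR2, a subunit of the type I receptor, was at 1934 and 1502 with shNCT, 2545 and 2734 with shS100A10_1, and 2789 and 3058 with shS100A10_5, above the controls on all 4 arrays with an S100A10 hairpin (changes 0.63 and 0.78; limma adjusted p = 0.337 and 0.0529). Of 6 negative regulators 5 had a probe set and 0 passed by limma (at an unadjusted p under 0.05, 0 with shS100A10_1, and with shS100A10_5 PTPN2 higher at 0.51 and SOCS1 lower at -0.45, against backgrounds of 10.7% and 10.3%).

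Of 15 sensors and adaptors of nucleic acid 13 had a probe set, and 1 passed in any comparison by limma. At an unadjusted p under 0.05 by limma, 4 were higher with shS100A10_1 (background 4.28%) and 0 lower. With shS100A10_5, 5 were higher (background 10.7%) and 1, IRF3, was lower (background 10.3%). TLR3, an endosomal receptor of double-stranded RNA, rose with shS100A10_5 (0.85; limma adjusted p = 0.0486; background 1.43%) and had a change of 0.06 with shS100A10_1. RIGI, a sensor of viral RNA, was at 1644 and 1731 with shNCT, 3275 and 3811 with shS100A10_1, and 1725 and 2349 with shS100A10_5 (changes 1.07 and 0.26; limma adjusted p = 0.0821 and 0.507). STING1, which relays DNA sensing, had changes of 0.82 and 0.26. The change was negative for 5 of the 13 with shS100A10_1 and for 2 with shS100A10_5, against 8318 and 7929 of all 16965 probe sets. IRF3 was negative both times (-0.47 and -0.54). TLR3 passed in 0 of the 6 fits that left out 1 array.

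The 8 OAS and IFIT genes had calls with either hairpin. OASL and IFIT2 rose with shS100A10_1 (2.50 and 2.04; limma adjusted p = 0.000428 and 0.0223; background 0.1%), and OAS1 rose with shS100A10_5 (1.13; adjusted p = 0.0308; background 1.43%). With the other hairpin the changes of OASL, IFIT2 and OAS1 were -0.62, 0.90 and 0.64 (limma adjusted p = 0.0928, 0.113 and 0.429). For IFIT2 and OAS1 the differences between hairpins, -1.14 and 0.50, did not pass (limma adjusted p = 0.064 and 0.242). Between the hairpins OASL and IFIT3 were lower with shS100A10_5 (-3.12 and -0.76; limma adjusted p = 0.000147 and 0.044; background 1.48%), and the median difference of the 8 was -0.38, against 0.25 for the 41 members. Without 1 array, OASL passed both of its comparisons in 6 of 6 fits, OAS1 passed in 2 (without either shS100A10_1 array), IFIT2 in 1 (without shS100A10_1 replicate 1) and IFIT3 in 0.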

How the data were processed

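RNA from 6 samples of MDA-MB-231 cells was measured on expression arrays. The deposited values are linear, normalized intensities. The submitters' processing notes name Transcriptome Analysis Console for them, with version and settings not given in the sources used here. No raw scans were used. Groups were taken from the sample labels. The log2 of each intensity was fitted with limma 3.58.1 in R 4.3.3, with 1 mean per group over all 6 arrays (3 residual degrees of freedom), empirical Bayes variances, two-sided tests and Benjamini-Hochberg adjustment over all 16965 probe sets at 0.05. The code was tested on simulated data. Gene names came from the platform annotation. Every measured member is named by role; full statistics are given for members that passed in any comparison and for the 4 largest changes in each. The members and lists were chosen with earlier results of these data known. Alternatives covered normalization, dim probe sets, variance prior, array weights, the replicate block, the samples in the fit, the threshold and each array left out.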

Additional observations from a re-analysis of the deposited data

Results flagged for a closer look

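The effects of the 2 hairpins differed by limma's test of the difference for 5 members. The difference, shS100A10_5 minus shS100A10_1 on the log2 scale, was 1.24 for SP110, 1.22 for DTX3L, 1.02 for XAF1, 0.86 for GBP2 and 0.78 for GBP1. For GBP1 and GBP2 it did not pass in any of the 6 fits that left out 1 array. Groups of 2 arrays are too small for the outlier test.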

How the results depend on the processing

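The counts of members past the threshold depended on the fit, and no call of a named member changed direction in any alternative run. With shS100A10_5 against control the count of 4 was 9 with dim probe sets left out, 14 (1 of them lower, PARP12) with a variance prior that follows intensity and 13 (1 lower, PARP12) at a threshold of 0.10. It was 3 with robust variances and 3 with array weights, where SP110 no longer passed (limma adjusted p = 0.0518 and 0.0707). It ranged from 0 to 10 over the fits without 1 array. For the difference between hairpins the count of 5 was 9 with dim probe sets left out, with the prior that follows intensity and at 0.10, each time 8 higher and 1 lower (IFI44). It was 4 with robust variances, 3 with array weights, 3 with only the groups compared, and 0 to 5 without 1 array. With shS100A10_1 the count was 1 with the prior that follows intensity and 0 in the other alternatives run. The replicate block gave 7 with shS100A10_5 against control. The labels give the numbers no shared culture or day. Deviations of same-numbered arrays correlated at -0.022, -0.035 and 0.188 over probe sets. With 1 replicate difference per group, these values cannot show whether same-numbered samples were paired, so the block is given as an alternative only. The members' median with shS100A10_5 was 0.34 after quantile normalization, 0.38 with arrays centred on their medians and 0.38 with dim probe sets left out. Without 1 array the medians ranged from 0.18 to 0.23 with shS100A10_1, from 0.36 to 0.46 with shS100A10_5 and from 0.23 to 0.26 for the difference. The cause of these shifts was not tested. The fits without 1 array for TLR3, OASL, OAS1, IFIT2 and IFIT3 were added after seeing the data. Each group has 2 arrays, and a fit without 1 of them assumes that the lone array varies like the other groups.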
